A study of Mus musculus with 8 samples.

Results

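The 9 genes described here are *Nfe2l2*, which encodes the transcription factor Nrf2, and 8 genes known as its targets: *Nqo1*, *Gclc*, *Gclm*, *Txnrd1*, *Srxn1*, *Hmox1*, *Slc7a11* and *Osgin1*. They were chosen by name from the 23282 rows of the count tables, and each of the 9 symbols stood on 1 row. The samples were livers of C57BL/6 mice in 3 groups. Control mice received saline. Endotoxemic mice received 25 mg/kg of lipopolysaccharide (LPS), the bacterial endotoxin, which sets off a systemic inflammatory response. The labels of the LGK974 group name only LGK974, an inhibitor of the acyltransferase Porcupine that blocks the secretion of Wnt proteins. By the study's description, mice of this group were also given LPS. They received 60 mg/kg of LGK974 and 25 mg/kg of LPS, with LGK974 in most experiments injected 2 h before LPS. Mice were 4 weeks old and are described as male, no genotype beyond the strain is named, and livers were collected 6 h after LPS. In such bulk tissue, fewer cells of a type and less RNA per cell cannot be told apart.

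Nrf2 is held at a low level by Keap1, which delivers it to a ubiquitin ligase for degradation. Electrophiles and oxidants modify Keap1, Nrf2 then accumulates, pairs with a small Maf protein in the nucleus and binds antioxidant response elements, for which the repressor Bach1 competes. Because Nrf2 is controlled mainly at the level of its protein, its activity is usually read from its targets, which in the liver supply glutathione, restore oxidized thiols, break down heme and detoxify quinones.

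Of the 8 libraries deposited, 4 were endotoxemic, and of these libraries 3 and 4 held the same counts on every row as libraries 1 and 2. Such a pair entered once, so that each group had 2 distinct libraries. The labels do not say whether these came from separate mice, so p-values measure only the spread between these samples, which may be technical. Where a library is left out below, its group holds a single library, and the spread comes from the other groups only. Total counts ranged from 9142116 to 15222439, and a floor of 3 counts corresponded to 0.197 to 0.328 CPM of these totals. Levels below are CPM relative to totals scaled by TMM, edgeR's correction for composition, and are given for library 1 and then library 2 of a group. Hepatocyte markers were present in every library. *Xist*, transcribed from the inactive X chromosome of females, had 1171 to 3115 counts in the control and endotoxemic libraries but 3 and 7 in the LGK974 libraries, and the Y-linked *Ddx3y* had 0 counts in the former and 1755 and 1392 in the latter. In both comparisons that involve it, the LGK974 group and this difference in sex-linked expression therefore cannot be told apart.

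Of the 23282 rows of the tables, 22347 followed the order of the genome, and 579 had neighbours that are not the genomic neighbours of their symbol. The other 356 had no known position or lay near their place. Of the 9 genes, *Nfe2l2* and *Hmox1* stood on such rows and the other 7 stood in order. The *Nfe2l2* row lay between *Gm13544* and *Upp2* on chromosome 2, at the place of *Acvr1*. The gene itself is annotated at chr2:75675513-75704641 on the minus strand of GRCm38. The *Hmox1* row lay between *Foxj2* and *Necap1* on chromosome 6, at the place of *C3ar1*. *Hmox1* itself is annotated at chr8:75093621-75100589 on the plus strand.

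The groups were far more alike when, in such rows, control counts were read by the symbol and the endotoxemic and LGK974 counts by the place of the row. Across the 442 out-of-order rows that could be matched to a gene, the rank correlation of mean level between control and endotoxemic libraries was 0.0469 as labelled and 0.807 after the endotoxemic counts were taken from the row at the gene's place. For control and LGK974 libraries it was 0.0621 as labelled and 0.85 by place. In the 22347 rows in order the same values were 0.931 and 0.942, all of them across genes, which are not independent replicates. For *Nfe2l2* and *Hmox1* both readings are therefore given, and the reading by place takes control counts from the symbol and the others from the place. The match of *Hmox1* came from the main matching rule, whereas that of *Nfe2l2* came from a wider rule added after the data had been seen.

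**Figure D1:**
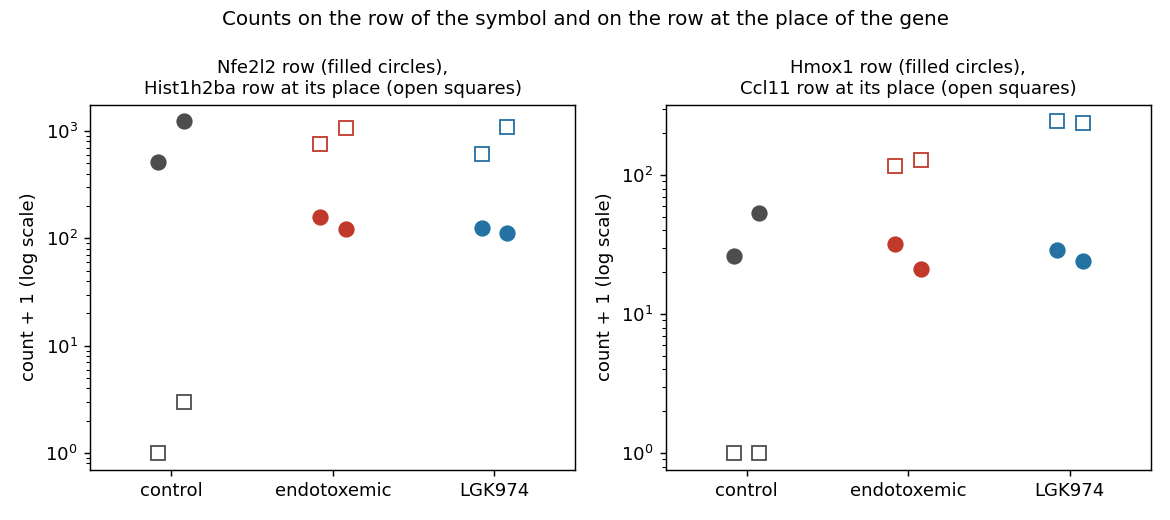
Counts plus 1 on a log axis (vertical) in the 2 libraries of each group (horizontal), for *Nfe2l2* on the left and *Hmox1* on the right. Filled circles are the row that carries the symbol and open squares the row at the gene's genomic place, labelled *Hist1h2ba* or *Ccl11*. The squares stand at 0 to 2 counts in control libraries and at 116 to 1094 counts in the others.

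The promoters are shown because Nrf2 acts through the antioxidant response element, read here by its core letters TGACNNNGC. RefSeq (GRCm38.p6) gave 9 windows of 300 bases, from 250 before to 50 after a transcript start, for 7 of the 9 genes. *Gclc* and *Hmox1* had no window in the promoter set that was used. The core was searched on both strands, as was TGANTCA, the core bound by AP-1, and no match of one overlapped a match of the other. The first was found in 4 of the 7 genes, against 14% of the 27025 genes with a window of this length, and in 4 of the 9 windows, against 12.4% of 32851. The second was found in 2 of the 7 genes, against 8.97% of genes and 7.81% of windows. Capitals mark the matches, at base -240 from the start for *Nfe2l2*, -134 for *Gclm*, -92 for the second window of *Txnrd1* and 29 for *Srxn1* for the antioxidant core. The AP-1 core lay at -102 and -45 in *Srxn1* and at -97 in *Osgin1*. The 5 windows with a match, read 5′ to 3′ on the strand of the gene, lie at chr2:75704614-75704913 (minus strand), chr3:122245307-122245606 (plus), chr10:82858956-82859255 (plus), chr2:152105274-152105573 (plus) and chr8:119436897-119437196 (plus), in the order printed. The *Osgin1* start and the second *Txnrd1* start lie inside the annotated genes.
Nfe2l2: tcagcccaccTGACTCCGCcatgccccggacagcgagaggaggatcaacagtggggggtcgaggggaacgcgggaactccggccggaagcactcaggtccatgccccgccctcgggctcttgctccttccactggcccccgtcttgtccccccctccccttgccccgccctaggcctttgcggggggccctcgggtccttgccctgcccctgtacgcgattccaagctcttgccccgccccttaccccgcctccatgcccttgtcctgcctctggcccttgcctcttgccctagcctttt
Gclm: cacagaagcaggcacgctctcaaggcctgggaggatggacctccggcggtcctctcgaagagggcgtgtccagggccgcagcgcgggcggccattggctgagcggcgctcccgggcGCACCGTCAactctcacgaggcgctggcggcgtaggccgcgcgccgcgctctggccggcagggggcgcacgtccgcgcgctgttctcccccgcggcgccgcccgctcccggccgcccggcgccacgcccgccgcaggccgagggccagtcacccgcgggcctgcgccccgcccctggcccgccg
Txnrd1: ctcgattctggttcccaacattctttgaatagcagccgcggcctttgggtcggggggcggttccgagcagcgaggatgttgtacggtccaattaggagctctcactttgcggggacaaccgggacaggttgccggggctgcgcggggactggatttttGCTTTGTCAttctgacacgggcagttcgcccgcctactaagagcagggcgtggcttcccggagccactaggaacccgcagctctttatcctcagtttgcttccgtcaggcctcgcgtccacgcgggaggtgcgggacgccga
Srxn1: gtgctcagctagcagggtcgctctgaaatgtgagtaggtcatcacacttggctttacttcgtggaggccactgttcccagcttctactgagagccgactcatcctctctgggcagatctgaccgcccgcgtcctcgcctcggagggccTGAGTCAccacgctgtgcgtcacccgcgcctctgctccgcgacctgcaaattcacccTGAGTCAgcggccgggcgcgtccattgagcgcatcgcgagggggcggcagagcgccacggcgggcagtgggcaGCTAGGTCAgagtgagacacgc
Osgin1: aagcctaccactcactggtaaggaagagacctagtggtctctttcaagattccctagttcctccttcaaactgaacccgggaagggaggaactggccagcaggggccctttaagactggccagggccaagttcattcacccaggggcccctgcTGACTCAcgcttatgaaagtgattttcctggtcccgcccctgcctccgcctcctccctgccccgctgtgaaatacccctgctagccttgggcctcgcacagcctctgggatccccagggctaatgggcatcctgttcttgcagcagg
The windows of *Nqo1* and *Slc7a11*, and the other 2 of *Txnrd1*, held neither set of letters. Bases outside the windows were not searched, so a gene without a match here may hold the letters elsewhere. A match is a description of the letters, and binding was not measured in these samples.

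*Nfe2l2* itself gave differences of opposite sign on the 2 readings. By genomic place, its level was 47.2 and 80.6 CPM in the control libraries, 82.2 and 113.5 CPM in the endotoxemic libraries and 46.5 and 74 CPM in the LGK974 libraries. Both endotoxemic libraries were above both control libraries, the lower of them only just, and LGK974 and control libraries overlapped. The log2 fold change of endotoxemic against control was 0.61 (SE 0.32, 95% interval -0.11 to 1.32, adjusted p = 0.152 by edgeR's quasi-likelihood test with Benjamini-Hochberg adjustment over all genes tested), which did not pass the threshold of 0.05. It passed in a fit with the replicate number as a block and in one with no filter on low counts, both given at the end. It also passed without LGK974 library 1 or 2, where that group held a single library. With the symbol as deposited, the endotoxemic libraries had 17 and 13 CPM and the LGK974 libraries 9.36 and 7.58 CPM, all below the controls. That reading gave a log2 fold change of -2.09 for endotoxemic against control (edgeR quasi-likelihood test, Benjamini-Hochberg adjusted p = 0.000554). The deposited row also passed against control in LGK974 livers (-2.92, edgeR adjusted p = 0.000128) and not against endotoxemic livers (-0.83, adjusted p = 0.146). The sign of the endotoxemic difference thus depended on which row was read.

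*Hmox1* encodes the inducible heme oxygenase, which opens heme to biliverdin, carbon monoxide and iron. By place it had 2.32 and 3.4 CPM in control, 12.7 and 13.5 CPM in endotoxemic and 18.3 and 16 CPM in LGK974 libraries. The control libraries were the lowest and the LGK974 libraries the highest, without overlap between any of the groups. On this reading *Hmox1* rose 4.51-fold in endotoxemic against control livers (log2 fold change 2.17, SE 0.3, edgeR quasi-likelihood test, Benjamini-Hochberg adjusted p = 0.000515). On the symbol's own row it was low in every library, between 1.56 and 3.4 CPM, and the difference was -0.06 on the log2 scale (SE 0.51, adjusted p = 0.934 by the same edgeR test). That row's value changed sign when endotoxemic library 2 or control library 2 was left out, to 0.24 and 0.25.

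**Figure D2:**
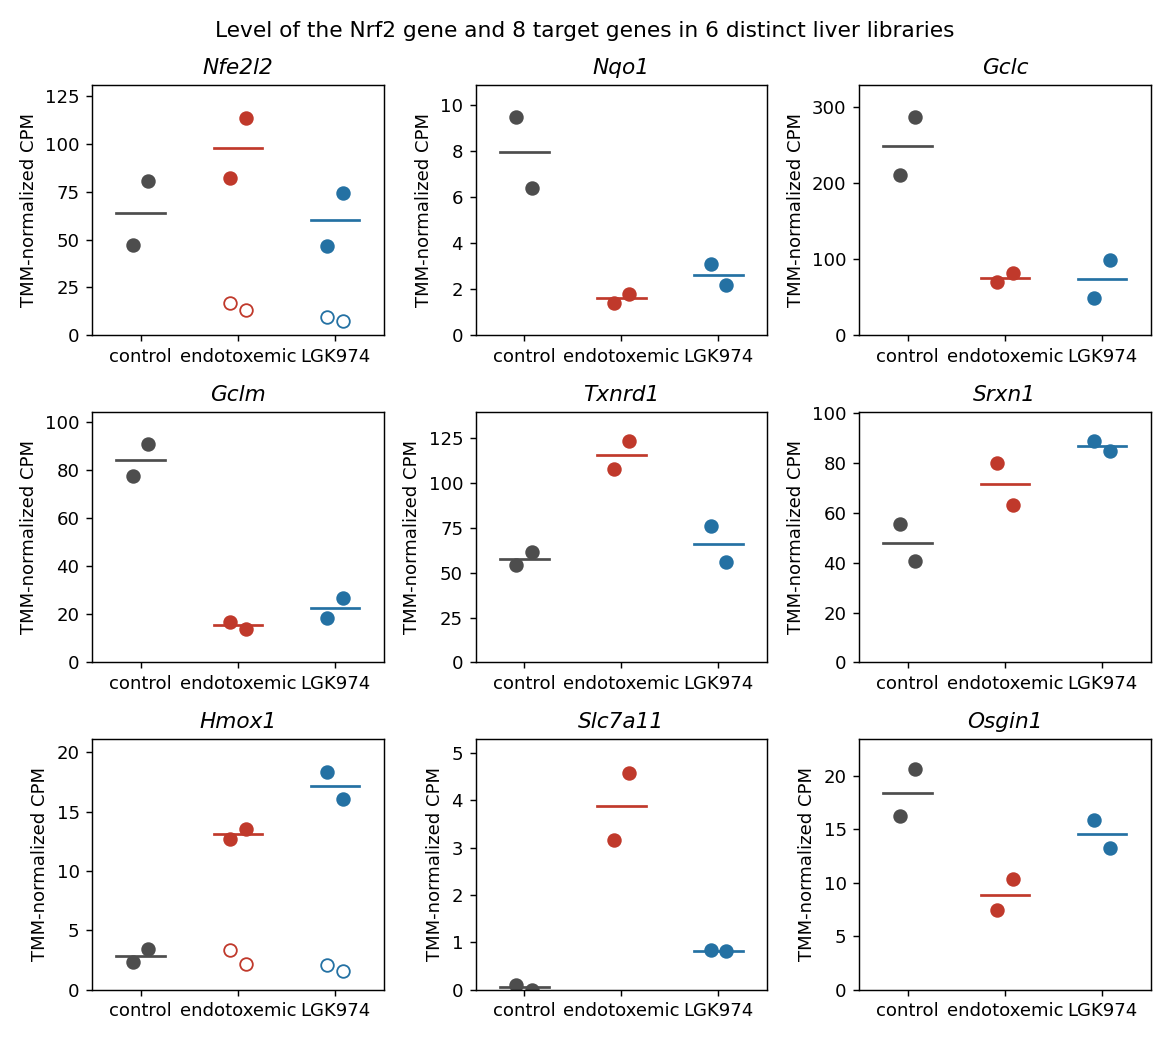
TMM-normalized CPM (vertical axes, from 0) of the 9 genes in each of the 6 distinct libraries, by group (horizontal axes), with 1 filled point per library and a line at the group mean. For *Nfe2l2* and *Hmox1* filled points are levels by genomic place, and open points are the endotoxemic and LGK974 libraries by the deposited symbol. *Gclm* stood at 77.7 to 90.9 CPM in control libraries and at 14.1 to 26.9 CPM in all others.

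The genes of glutathione synthesis moved in opposite directions in endotoxemic livers. *Gclc* and *Gclm* encode the catalytic and the modifier subunit of glutamate-cysteine ligase, the rate-limiting enzyme, and *Slc7a11* encodes xCT, which imports the cystine that supplies cysteine. *Gclc* (chr9:77754535-77794485) had 209.8 and 286.6 CPM in control libraries, 69.6 and 81.5 CPM in endotoxemic libraries and 49.2 and 98.3 CPM in LGK974 libraries. Every control library exceeded every other library, and the LGK974 libraries lay on either side of the endotoxemic ones. *Gclc* fell 3.28-fold in endotoxemic against control livers (log2 fold change -1.72, SE 0.32, edgeR quasi-likelihood test, Benjamini-Hochberg adjusted p = 0.00248).

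*Gclm* (chr3:122245557-122270732), whose window above holds an antioxidant core, had 77.7 and 90.9 CPM in control, 17 and 14.1 CPM in endotoxemic and 18.7 and 26.9 CPM in LGK974 libraries. Again the controls stood well above the rest, and both LGK974 libraries were above both endotoxemic ones. Its fall against control was 5.42-fold in endotoxemic livers (log2 fold change -2.44, SE 0.25, edgeR quasi-likelihood test, Benjamini-Hochberg adjusted p = 7.5e-05), the largest fall among the 7 genes on rows in order.

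*Slc7a11* (chr3:49892526-50443614) was almost undetected in control livers, with 1 and 0 counts, against 29 and 43 counts in endotoxemic and 11 and 12 counts in LGK974 libraries. These correspond to 0.0928 and 0 CPM, 3.16 and 4.58 CPM, and 0.83 and 0.812 CPM. The control libraries were below the floor, the endotoxemic libraries were highest, and the 3 groups did not overlap. The pooled endotoxemic level was 101.2 times the control level, with an exact 95% interval of 17.6 to 4053 that covers counting error only, since the control total was a single count. *Slc7a11* rose in endotoxemic livers (edgeR quasi-likelihood test, Benjamini-Hochberg adjusted p = 0.000875), and the fitted log2 fold change of 6.3 depends on the prior count. It was 8.59 without control library 1 and 5.23 without control library 2.

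Of the 2 genes of thiol repair, *Txnrd1* rose in endotoxemic livers and *Srxn1* did not pass the test. *Txnrd1* (chr10:82833951-82897712) encodes cytosolic thioredoxin reductase, which uses NADPH to keep thioredoxin reduced. It had 54.1 and 61.2 CPM in control libraries, 107.6 and 123.1 CPM in endotoxemic libraries and 76.1 and 56 CPM in LGK974 libraries. The endotoxemic libraries were above all others, and the LGK974 and control libraries overlapped. *Txnrd1* was 2-fold higher in endotoxemic than in control livers (log2 fold change 1, SE 0.22, edgeR quasi-likelihood test, Benjamini-Hochberg adjusted p = 0.00526). Without endotoxemic library 2 or control library 1 this edgeR call was lost, at adjusted p = 0.0513 and 0.0646.

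*Srxn1* (chr2:152105516-152111376), for sulfiredoxin, reactivates over-oxidized peroxiredoxins. It had 55.4 and 40.8 CPM in control, 79.9 and 63.1 CPM in endotoxemic and 88.9 and 85 CPM in LGK974 libraries, in rising order of groups and with no overlap. The endotoxemic against control difference was 0.57 on the log2 scale (SE 0.22, 95% interval 0.07 to 1.08) and did not pass the test (edgeR quasi-likelihood test, Benjamini-Hochberg adjusted p = 0.0639). It did pass by edgeR without a filter on low counts, with upper-quartile factors, or in a fit of these 2 groups alone. It also passed without either LGK974 library, where that group held 1 library. Passing with the identical libraries entered separately is no support, because copies lower p without adding data.

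*Nqo1* and *Osgin1* fell. *Nqo1* (chr8:107388225-107403206), a quinone reductase often taken as the standard readout of Nrf2, had 9.47 and 6.41 CPM in control, 1.42 and 1.81 CPM in endotoxemic and 3.1 and 2.17 CPM in LGK974 libraries. Its counts were low, at 13 and 17 in the endotoxemic libraries, but the 3 groups did not overlap. The fall against control was 4.87-fold (log2 fold change -2.28, SE 0.45, edgeR quasi-likelihood test, Benjamini-Hochberg adjusted p = 0.00334).

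*Osgin1* (chr8:119434124-119446256), an oxidative stress induced growth inhibitor, had 16.2 and 20.7 CPM in control, 7.42 and 10.3 CPM in endotoxemic and 15.9 and 13.3 CPM in LGK974 libraries. The endotoxemic libraries were the lowest, and the LGK974 libraries lay just under the controls. *Osgin1* fell 2.08-fold against control (log2 fold change -1.06, SE 0.29, edgeR quasi-likelihood test, Benjamini-Hochberg adjusted p = 0.0153). This call was lost without endotoxemic library 1 or control library 2, at edgeR adjusted p = 0.15 and 0.109.

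Of the 7 genes on rows in order, 4 fell (*Gclm*, *Nqo1*, *Gclc*, *Osgin1*), 2 rose (*Slc7a11*, *Txnrd1*) and *Srxn1* did not pass in endotoxemic against control livers. Across all 12701 genes tested the same call was made for 43.4%, with 20.4% higher and 23% lower, so a change of some kind was common. The median log2 fold change was -1.06 over the 7 genes and 0.01 over all genes tested. In the second fit, by place, 20% of 12592 genes were higher, and *Hmox1* was a further gene that rose and *Nfe2l2* did not pass.

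**Figure D3:**
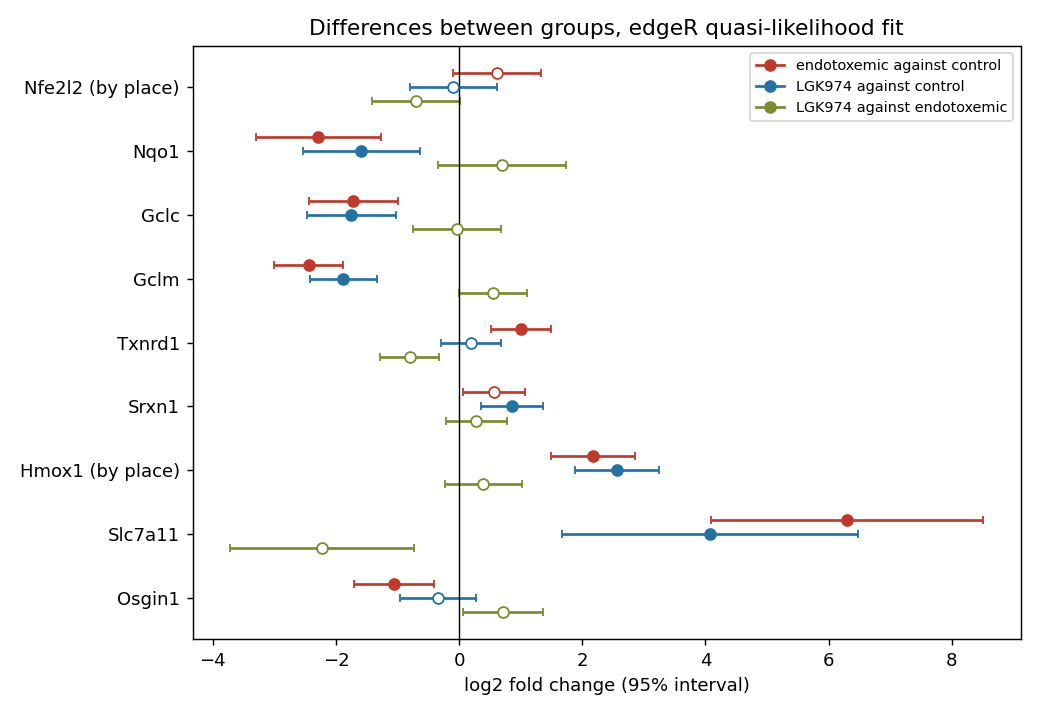
Log2 fold change (horizontal axis) with its 95% interval for each of the 9 genes (vertical axis) in 3 comparisons, from the edgeR quasi-likelihood fit, with *Nfe2l2* and *Hmox1* by genomic place. Filled points passed an adjusted p of 0.05 and open points did not. In endotoxemic against control livers the points run from -2.44 for *Gclm* to 6.3 for *Slc7a11*, and every point of LGK974 against endotoxemic livers is open.

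The comparison of LGK974 with endotoxemic livers asks how the genes differed when LGK974 was given as well. None of the 7 genes on rows in order passed the edgeR quasi-likelihood test, against 5.62% of all genes tested (2.8% higher and 2.82% lower). At an unadjusted p below 0.05 there were 4 of the 7, against 22.9% of all genes tested. DESeq2 called 1 and limma-voom called 0. The log2 differences of *Slc7a11* and *Txnrd1* were -2.22 (95% interval -3.72 to -0.73, edgeR adjusted p = 0.0854) and -0.8 (-1.29 to -0.32, edgeR adjusted p = 0.0637). In counts, the pooled *Slc7a11* level in LGK974 libraries was 0.211 of that in endotoxemic libraries (exact 95% counting interval 0.126 to 0.342).

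The 4 genes that had fallen in endotoxemic livers had mixed differences in the same comparison. The log2 difference was 0.72 for *Osgin1* (95% interval 0.07 to 1.36, edgeR adjusted p = 0.175), 0.7 for *Nqo1* (-0.35 to 1.74, adjusted p = 0.405), 0.56 for *Gclm* (0.01 to 1.1, adjusted p = 0.214) and -0.03 for *Gclc* (-0.74 to 0.67, adjusted p = 0.961). For *Srxn1* it was 0.28 (-0.22 to 0.78, edgeR adjusted p = 0.487). By place it was 0.39 for *Hmox1* (-0.23 to 1.01, edgeR adjusted p = 0.436) and -0.7 for *Nfe2l2* (-1.41 to 0.02, adjusted p = 0.227), in a fit where 5.73% of genes were called. Without LGK974 library 2, which left a single library in that group, *Nfe2l2* by place was -1.07. With the symbol as deposited, *Hmox1* differed by -0.59 (edgeR adjusted p = 0.545). These intervals are wide, so a p above the threshold does not show that the groups were alike.

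*Txnrd1* was called lower in LGK974 than in endotoxemic livers by DESeq2 (adjusted p = 0.0212) and by edgeR when genes with low counts were kept (adjusted p = 0.0128). LGK974 library 1 had the higher *Txnrd1* and the lower *Gclm* level of its pair. Without it, when the LGK974 group held a single library, the log2 fold change was -1.04 for *Txnrd1* and 0.79 for *Gclm*.

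Against control, LGK974 livers had 2 genes higher and 3 lower among the 7, where 34.1% of all genes tested were called, 16.4% higher and 17.7% lower. This comparison shares its controls with the first one, so the values are given side by side. *Gclm* was -1.88 on the log2 scale here and -2.44 in endotoxemic livers, *Gclc* -1.75 and -1.72, and *Nqo1* -1.59 and -2.28. All 3 fell in LGK974 against control livers, at edgeR quasi-likelihood adjusted p of 0.000383, 0.00299 and 0.0176, and *Gclc* was -2.33 without LGK974 library 2. *Slc7a11* rose against control (edgeR adjusted p = 0.0169; 21.4 times by pooled counts, exact 95% interval 3.48 to 881.5), as did *Srxn1* (log2 fold change 0.86, SE 0.22, edgeR adjusted p = 0.0162). Without control library 1 the call of *Nqo1* was lost (edgeR adjusted p = 0.147), and without control library 2 those of *Srxn1* and *Slc7a11* were (log2 fold change 0.65 and 3.01, edgeR adjusted p = 0.153 and 0.115).

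*Txnrd1* and *Osgin1*, both called in endotoxemic livers, did not pass in LGK974 against control livers. Their log2 differences were 0.19 (95% interval -0.29 to 0.68, edgeR adjusted p = 0.52) and -0.34 (-0.96 to 0.28, adjusted p = 0.373). By place, where 15.6% of genes were higher, *Hmox1* rose 5.91-fold against control (log2 fold change 2.56, SE 0.3, edgeR quasi-likelihood test, Benjamini-Hochberg adjusted p = 0.000287), and *Nfe2l2* differed by -0.09 (95% interval -0.8 to 0.62, edgeR adjusted p = 0.855). With the symbol as deposited, *Hmox1* was not called against control (log2 fold change -0.65, SE 0.51, edgeR adjusted p = 0.365), so the 5.91-fold rise rests on the reading by place.

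The wider pathway was read from 88 further genes in 6 lists, of which 86 stood on rows in order (all but *Prdx2* and *Hp*) and 82 were tested. In endotoxemic against control livers 14 rose, 37 fell and 31 did not pass, and the median log2 fold change was -0.59. Of all genes tested, 20.4% rose and 23% fell, and the shares of the lists below are to be read against these. The number that rose was 3 to 7 when any 1 of the 4 libraries compared was left out. In LGK974 against endotoxemic livers 4 rose and 2 fell, where 2.8% and 2.82% of all genes did, and against control 8 rose and 31 fell, where 16.4% and 17.7% did. The former became 1 and 0 without either endotoxemic library, and 10 and 15 without LGK974 library 1. The number that rose was 7 without LGK974 library 2 and 2 without either control library, and the rises against control became 4 without control library 2.

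Among 14 regulators of Nrf2 tested, 3 rose and 2 fell in endotoxemic against control livers, beside 20.4% and 23% of all genes. *Keap1*, the repressor, had 71 and 87.8 CPM in control and 109.7 and 117.7 CPM in endotoxemic libraries and missed the threshold (log2 fold change 0.52, edgeR adjusted p = 0.0606). It passed without LGK974 library 1 or library 2, where that group held a single library. *Bach1*, which competes with Nrf2 for its sites, rose from 18.6 and 17.9 CPM to 42.7 and 37.6 CPM (log2 fold change 1.14, edgeR adjusted p = 0.0101). Of the 3 small Maf genes, whose products pair with Nrf2, *Maff* rose (1.88, edgeR adjusted p = 0.00973), *Mafg* fell (-1.38, adjusted p = 0.000438) and *Mafk* did not pass (0.15, adjusted p = 0.659). *Bach2* fell by 2.91 on the log2 scale, and *Trim21*, an interferon-induced ubiquitin ligase, rose by 2.29. The call of *Maff* was lost without endotoxemic library 2 or control library 1 (edgeR adjusted p = 0.0862 and 0.0516), and its value was 2.84 without control library 2. That of *Bach1* was lost without endotoxemic library 1 or either control library (edgeR adjusted p = 0.0549 to 0.0705). In LGK974 against endotoxemic livers *Maff* and *Trim21* were the regulators that passed, both lower, with log2 fold changes of -2.26 and -2.19 (edgeR adjusted p = 0.0275 and 0.0187), and both calls were lost without either endotoxemic library (adjusted p = 0.0594 to 0.22). *Keap1* and *Bach1* did not pass in this comparison (-0.73 and -0.62, edgeR adjusted p = 0.067 and 0.22). With a single library left in the LGK974 group, they were -0.63 and -1.09 without LGK974 library 1, and -0.83 and -0.27 without library 2.

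Of 23 other glutathione genes tested, 4 rose and 14 fell in endotoxemic against control livers, where 20.4% and 23% of all genes did. *Slc3a2*, the partner chain that carries xCT to the membrane, rose along with *Slc7a11* (log2 fold change 1.05, edgeR adjusted p = 0.0164), and so did *Chac1*, which degrades glutathione (1.28, adjusted p = 0.032). The former call was lost without endotoxemic library 2 or control library 1 (edgeR adjusted p = 0.0858 and 0.14), the latter without endotoxemic library 2 or either control library (0.109 to 0.254). *Chac2*, a relative of *Chac1*, fell by 2.66 on the log2 scale. *Gstm1*, a glutathione transferase, fell by 2.13 from 1558 and 1810 CPM to 348.3 and 418.2 CPM, though reads of such close paralogs may be shared between family members. In LGK974 against endotoxemic livers *Gstp1*, of which the genome holds a close neighbouring copy, rose 6.25-fold, and *Gpx4*, which reduces lipid peroxides, rose by 0.97 on the log2 scale (edgeR adjusted p = 0.000639 and 0.0269). These groups also differed in *Xist* and *Ddx3y*, as given above, and treatment and sex-linked expression cannot be told apart. The call of *Gpx4* was lost without any 1 of the endotoxemic or control libraries (edgeR adjusted p = 0.0733 to 0.231).

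In the thioredoxin and peroxiredoxin list 1 of 12 genes rose and 4 fell, which is near the 43.4% called among all genes. The riser was *Txn1*, the substrate of *Txnrd1* (log2 fold change 0.6, edgeR adjusted p = 0.0413), while *Prdx6* fell by 2.27 and *Sesn1* fell by 1.91. *Txn1* was not called without any 1 of the 4 libraries compared (edgeR adjusted p = 0.104 to 0.264), nor *Sesn1* without endotoxemic library 2 (0.0652). Of 6 genes that supply NADPH, *G6pdx* and *Pgd* of the pentose phosphate pathway rose (1.59 and 0.68, edgeR adjusted p = 0.035 and 0.0457), and *Idh1* and *Me1* fell (-2.68 and -1.26, adjusted p = 1.15e-05 and 0.000986). The call of *Pgd* was lost without any 1 of the 4 libraries (edgeR adjusted p = 0.058 to 0.289), and that of *G6pdx* without either endotoxemic library or control library 1 (0.0998 to 0.169), with a log2 fold change of 2.53 without control library 2. *Idh1* was 2.34-fold higher in LGK974 than in endotoxemic livers (edgeR adjusted p = 0.00931, and 0.124 and 0.126 without endotoxemic library 1 or 2).

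Of 8 heme and iron genes, 1 rose and 4 fell in endotoxemic against control livers, beside 20.4% and 23% of all genes. *Hpx*, the plasma scavenger of free heme, rose 6.83-fold, whereas the iron exporter gene *Slc40a1* fell by 5.27 and *Fech*, which inserts iron into heme, fell by 1.85 on the log2 scale. Of 19 genes for detoxification of quinones, carbonyls and superoxide, 3 rose and 11 fell, beside the same shares. *Sod2*, mitochondrial superoxide dismutase, rose 4.49-fold from 253.1 and 261.2 CPM to 1160 and 1152 CPM, and *Osgin2* rose by 1.89. The bile canalicular exporter gene *Abcc2* fell by 4.72, and *Aldh3a2*, a fatty aldehyde dehydrogenase gene, fell by 3.91. *Abcc2* was 2.16-fold higher in LGK974 than in endotoxemic livers (edgeR adjusted p = 0.048), a call lost without any 1 library other than LGK974 library 1 (0.0626 to 0.299). That of *Osgin2* against control was lost without endotoxemic library 2 or either control library (edgeR adjusted p = 0.0567 to 0.104). *Gpx3*, *Prdx6* and *Osgin2* stood in order, each beside 1 row that is not a genomic neighbour.

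In LGK974 against control livers, the calls of each list are to be read against 16.4% higher and 17.7% lower among all genes. Of the 14 regulators 0 rose and 2 fell, *Bach2* (log2 fold change -1.65) and *Mafg* (-1.09). Of the 23 glutathione genes 3 rose and 10 fell, with the largest rises in *Gpx3*, a secreted glutathione peroxidase gene (1.88), and *Gstp1* (1.86), and the largest falls in *Chac2* (-2.53) and *Gsta2* (-2.42). The *Gpx3* level differed between the LGK974 libraries, at 10.1 and 28 CPM, against 6.78 and 3.66 CPM in control. In the thioredoxin and peroxiredoxin list 0 rose and 3 fell, led by *Prdx6* (-1.65) and *Txnrd2*, the mitochondrial thioredoxin reductase gene (-1.49). Among NADPH genes *Pgd* rose 2.03-fold and *Idh1* and *Me1* fell (-1.45 and -0.75). Of the heme and iron genes 2 rose, *Hpx* (2.76) and *Blvra*, which reduces biliverdin to bilirubin (1.12), and 4 fell, led by *Slc40a1* (-3.36) and *Fech* (-1.32). Of the detoxification genes 2 rose, *Sod2* (2.01) and *Osgin2* (1.52), and 10 fell, led by *Aldh3a2* (-3.94) and *Abcc2* (-3.61). The LGK974 libraries also stood apart for *Osgin2*, at 10.9 and 3.86 CPM, and for *Slc40a1*, at 3.32 and 16.4 CPM. Without LGK974 library 1 the log2 fold change of *Osgin2* was 0.59 and that of *Slc40a1* -2.63, and without LGK974 library 2 that of *Slc40a1* was -4.93 and that of *Gpx3* 0.98. The call of *Osgin2* was lost without any 1 library other than LGK974 library 2 (edgeR adjusted p = 0.0598 to 0.349). Those of *Bach2*, *Gpx3*, *Pgd* and *Blvra* were lost without control library 2 (0.0623 to 0.122), and that of *Me1* without either control library (0.075 and 0.12).

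**Figure D4:**
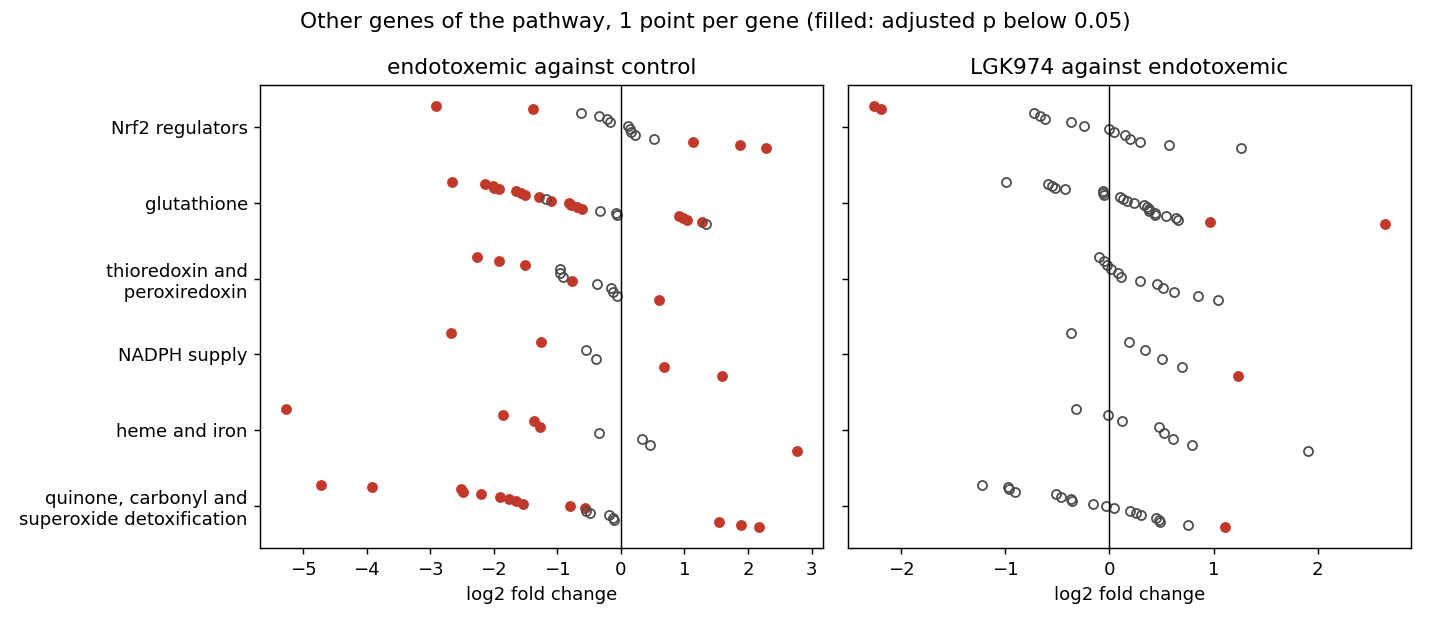
Log2 fold change (horizontal axes) of the genes in each of 6 pathway lists (vertical axes), with 1 point per gene. The panels show endotoxemic against control and LGK974 against endotoxemic livers. Filled points passed an adjusted p of 0.05. Filled points lie mostly left of 0 in endotoxemic against control livers, with 37 of 82 genes lower, and 6 points are filled in LGK974 against endotoxemic livers.

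Markers of cell types, without those on rows out of order, moved with these differences, and their part in them was not tested. The summed level of 7 hepatocyte markers was 75210 to 107600 CPM in control, 30460 to 46990 CPM in endotoxemic and 32730 to 35180 CPM in LGK974 libraries, and 5 of the 7 fell in endotoxemic against control livers. For 6 Kupffer cell and macrophage markers, the cells in which heme oxygenase is also prominent, the sum was 105 to 107.2, 134.9 to 149.5 and 96.9 to 130 CPM. *Marco*, a scavenger receptor gene that was called higher in endotoxemic livers (log2 fold change 3.7), carried this rise. The other 5 summed to 98.1 to 100.9 CPM in control, 52.9 to 60.4 CPM in endotoxemic and 32.8 to 36 CPM in LGK974 libraries, and of these *Vsig4* and *Clec4f* fell in endotoxemic against control livers, with log2 fold changes of -2.76 and -0.89. Of the 6, 1 was higher, 2 were lower and 3 were not called in this comparison, with a median log2 fold change of 0.19. *Marco*, *Vsig4*, *Clec4f* and the endothelial markers named below were singled out after their values had been seen. For 3 monocyte and neutrophil markers without *Lcn2*, which hepatocytes also express, it was 2.04 to 2.88, 26.2 to 40.4 and 18.7 to 19 CPM. For 5 erythroid markers it was 2743 to 2965, 6569 to 7705 and 2714 to 4172 CPM. The 6 sinusoidal endothelial markers summed to 231.4 to 248.7, 402.9 to 406.3 and 433.5 to 554.4 CPM and moved both ways, with 1 higher and 3 lower in endotoxemic against control livers. Of these *Lyve1* stood at 49.5 and 35.7 CPM in control and 359.9 and 336.1 CPM in endotoxemic libraries, *Kdr* at 64.7 and 64.6 against 0.873 and 2.24 CPM, and *Clec4g* at 72.1 and 83.7 against 6 and 7.89 CPM. The rows of *Lyve1* and *Kdr* stood in order, each beside 1 row that is not a genomic neighbour. The 7 stellate markers summed to 449.6 to 469.6, 573.6 to 617.6 and 493.2 to 590.6 CPM (1 higher and 3 lower), and the 5 cholangiocyte markers to 29 to 29.2, 83.4 to 88.4 and 38.1 to 92.3 CPM (1 higher and 1 lower). No marker in these lists was at 0 in all libraries.

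Among 12281 tested genes on rows in order, those whose profile over the 6 libraries lay nearest to *Hmox1* by place were *Ifitm2*, *Pglyrp1*, *BC022687*, *Cd93* and *Cyp1b1*. Likeness was the Euclidean distance between centred log2(CPM + 0.5) profiles, and ran from 0.297 to 0.42. The nearest of these, *Ifitm2*, had 80.7 and 102 CPM in control, 321.1 and 371 CPM in endotoxemic and 420.8 and 387.1 CPM in LGK974 libraries. For *Nfe2l2* by place they were *Tomm34*, *Igsf8*, *Plekhg1*, *Pecam1* and *Rbm5*, at 0.259 to 0.352. *Tomm34* had 5.11 and 8.89 CPM in control, 9.49 and 14 CPM in endotoxemic and 6.11 and 7.92 CPM in LGK974 libraries.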

How the data were processed

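The authors sequenced liver RNA with a 3′-end method (QuantSeq) and deposited, per the labels, the count of reads per gene symbol as whole numbers without normalization. The submitters' processing notes name Bowtie2, edgeR and mm10, with no role or version. Tests used edgeR 4.0.16 in R 4.3.3, with filterByExpr by group, TMM factors, and 1 quasi-likelihood model with group as its only factor on the 6 distinct libraries, with Benjamini-Hochberg adjustment over 12701 genes and a threshold of 0.05. CPM use TMM library sizes. The SE was derived from the F statistic. A second fit took control counts from the symbol and other counts from the row at the gene's place, for out-of-order rows that could be matched. Row places came from RefSeq gene positions and gene coordinates from GENCODE M21, both on GRCm38. Alternatives used DESeq2 1.42.0 and limma 3.58.1, other filters and scalings, a replicate block and libraries left out. In simulated counts for endotoxemic against control, the test recovered 16% of 100 genes changed 2-fold and 96% of 100 changed 4-fold. Of its 116 calls there, 4 were false. All 9 genes were named in full, with the 2 largest rises and falls of each pathway list and comparison past the threshold on rows in order, *Keap1*, *Bach1* and the 5 genes nearest in profile to *Nfe2l2* and to *Hmox1*. The genes and lists were chosen with earlier results of these data known. Protein sequences were not used here.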

Additional observations from a re-analysis of the deposited data

How the results depend on the processing

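Each comparison was repeated under 18 alternatives, 6 of which left out 1 library. Of 474 values of the 9 genes, 435 kept their direction and their side of the threshold, 18 passed it newly, 8 no longer passed and 13 changed sign. These counts include the fit with the identical libraries entered separately, and the fits that left 1 library in a group. With reassigned symbols *Hmox1* changed sign in all 3 comparisons, to 2.17 for endotoxemic against control, 0.39 for LGK974 against endotoxemic and 2.56 for LGK974 against control, with the same values under the wider matching, where *Nfe2l2* changed to 0.61 for endotoxemic against control and no longer passed for LGK974 against control (-0.09). The other changes of sign were those of *Gclc* in LGK974 against endotoxemic (0.018 with upper-quartile factors, and -0.62 to 0.38 with 1 library left out, above 0 without endotoxemic library 2 or LGK974 library 1), *Txnrd1* in LGK974 against control (-0.038 to 0.402, below 0 without LGK974 library 1) and *Hmox1* as deposited in endotoxemic against control (-0.37 to 0.25). The cause of these changes was not tested.

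For LGK974 against endotoxemic, 356 genes rose and 358 fell in the main analysis, against 881 and 824 without a filter on low counts, 549 and 569 by DESeq2, 107 and 162 in a fit of the 2 groups alone, and 1711 and 1548 when the identical libraries entered as separate samples. The 7 genes on rows in order then gave 2 lower without the filter, 1 lower by DESeq2, and 2 higher and 2 lower with 8 libraries. Pathway genes gave 6 lower without the filter, 4 lower by DESeq2, 2 higher in the fit of 2 groups, and 19 higher and 6 lower with 8 libraries. The fit of 8 libraries counts copies as samples, which lowers p without adding data. A minimum of 10 counts in every library left 1 of the 7 genes higher in each comparison against control, because *Slc7a11* was no longer tested.

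When 1 library at a time was left out, genes higher and lower in endotoxemic against control ranged from 1517 to 3196 and from 1801 to 3523, of the 7 genes from 1 to 3 and from 3 to 4, and of the pathway genes from 3 to 16 and from 26 to 43. For LGK974 against endotoxemic the ranges were 23 to 1175 and 26 to 1067 genes, 0 to 1 and 0 to 1 of the 7, and 1 to 10 and 0 to 15 pathway genes, with the lowest gene counts without endotoxemic library 2 and the highest without LGK974 library 1. For LGK974 against control they were 1041 to 2608 and 1331 to 2761 genes, 0 to 2 and 2 to 3 of the 7, and 4 to 12 and 22 to 37 pathway genes.

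The groups share replicate numbers, but nothing says that a number marks a shared mouse, litter or day. Deviations of same-numbered libraries correlated at 0.18, 0.063 and -0.013 in the 3 comparisons. With a replicate block, 2577 genes rose and 2908 fell in endotoxemic against control, where *Srxn1* then passed (log2 fold change 0.58, edgeR adjusted p = 0.0397), 330 and 355 in LGK974 against endotoxemic, and 2048 and 2259 in LGK974 against control, and no other call among the 9 genes, with symbols as deposited, changed. The same alternatives were also run on the counts read by place, a choice made after seeing the data. *Hmox1* by place was called against control in every one of them, in endotoxemic and in LGK974 livers, and in none of them between LGK974 and endotoxemic livers. *Nfe2l2* by place passed in endotoxemic against control under the replicate block (log2 fold change 0.64, edgeR adjusted p = 0.0235) and with no filter on low counts (0.66, adjusted p = 0.0223). It also passed there without LGK974 library 1 or 2, where that group held a single library. In LGK974 against endotoxemic it passed with no filter (-0.71, edgeR adjusted p = 0.0377). Without LGK974 library 2, again with a single library in that group, it was -1.07. In LGK974 against control its -0.09 changed sign with upper-quartile factors (0.013) and ranged from -0.46 to 0.35 with 1 library left out, above 0 without control library 2 or LGK974 library 1 (0.21), with no call. With 2 libraries per group, low counts limited *Slc7a11*, *Nqo1* and the deposited *Hmox1* row.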
